A study of Homo sapiens with 6 samples.

Results

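The genes described are PAX3 and its paralog PAX7, the forkhead genes FOXO1, FOXO3, FOXO4 and FOXS1, and the PAX partner network genes SIX4, EYA1 and EYA4, in a rhabdomyosarcoma line treated with YK-4-279. They are 9 of the 35268 named genes in the normalized count matrix, and their rows were found by an exact match of the symbol. They were selected on the difference between drug-treated and vehicle-treated libraries, which was already known, so that difference is given for them as a description. Whether a member is among the genes called by limma is stated to place it among all genes, and is no test of the member. Rh30 is an established, patient-derived line of fusion-positive rhabdomyosarcoma (FP-RMS) that carries PAX3-FOXO1, and it was the 1 line sequenced. YK-4-279 is a small molecule known as an inhibitor of ETS-family proteins, EWS-FLI1 of Ewing sarcoma among them. Polyadenylated RNA was sequenced from 3 samples of Rh30 cells exposed to 1 µM YK-4-279, dissolved in DMSO, for 24 hours, and from 3 samples given DMSO alone for the same time. The sources used here do not say that the 3 samples of a group were separate cultures, so the p-values measure only the spread between these samples, which may be technical.

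PAX3 encodes a paired-box transcription factor of muscle progenitors and the neural crest, and PAX7 encodes its closest relative, which marks satellite cells of adult muscle. In the fusion, the DNA-binding part of PAX3 is joined to the transactivation domain of FOXO1, so the fusion transcript starts at the PAX3 promoter and ends in FOXO1 sequence. Counts per gene therefore mix fusion and wild-type reads on both genes. FOXO1, FOXO3 and FOXO4 are forkhead transcription factors that AKT and SGK kinases phosphorylate, after which 14-3-3 proteins hold them outside the nucleus. Sine oculis homeobox proteins such as SIX4 bind DNA together with EYA co-activators upstream of the myogenic regulators, and FOXS1 is a small forkhead gene without introns.

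The 6 libraries held 16724650 to 24677433 reads on named genes. DMSO replicate 1 stood apart from the others: its mean correlation with the other libraries across genes was 0.989, against at least 0.992 for each of the rest, and 13 mitochondrial genes took 6.05% of its counts, against 4.74% to 5.03% elsewhere. Among the DMSO libraries, DMSO replicate 1 was the highest or the lowest for all 8 members with enough reads to enter the fit. Differences without it are therefore given for each member and for the genes of the lists that were then called. Of 8 markers of skeletal myoblasts and rhabdomyosarcoma, 7 had a mean of at least 10, and their summed level was 71927 to 84819 normalized counts in DMSO and 79355 to 82999 with YK-4-279. None of 5 leukocyte markers reached that mean, and 2 of them were at 0 in every library.

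The promoters of PAX3 and FOXO1 are shown because transcripts of the fusion begin at the former and those of wild-type FOXO1 at the latter. Each is the 250 bases before the start site on the gene's own strand, from RefSeq on GRCh38.p14, at chr2:222298999-222299248 for PAX3 and chr13:40666642-40666891 for FOXO1. Capitals mark CCAAT, or ATTGG where the motif lies on the opposite strand.
PAX3: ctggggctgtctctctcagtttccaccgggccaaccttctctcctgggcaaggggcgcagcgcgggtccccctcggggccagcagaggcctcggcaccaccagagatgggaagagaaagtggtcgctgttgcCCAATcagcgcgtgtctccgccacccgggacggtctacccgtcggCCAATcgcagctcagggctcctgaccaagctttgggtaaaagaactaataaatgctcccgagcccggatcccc
FOXO1: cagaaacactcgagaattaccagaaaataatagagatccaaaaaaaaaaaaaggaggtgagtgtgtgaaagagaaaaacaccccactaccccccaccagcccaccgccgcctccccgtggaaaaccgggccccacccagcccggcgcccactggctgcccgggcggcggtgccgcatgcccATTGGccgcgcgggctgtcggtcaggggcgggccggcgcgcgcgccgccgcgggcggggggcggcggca
Both windows were rich in GC, at 64.0% for PAX3 and 67.2% for FOXO1, against a median of 58.0% over 35116 human promoters of the same length. PAX3 held CCAAT at -118 to -114 and at -73 to -69 from the start site, FOXO1 held ATTGG at -69 to -65, SIX4 held CCAAT at -39 to -35, and PAX7 held ATTGG at -128 to -124. This motif was searched after the sequences had been seen, and 32.0% of all promoters held it on either strand. GTAAACA, the letters of a FOXO site, CCGGAAG of an ETS site, CANCTG of an E-box and GTCACGC of a paired-domain site were in none of the 10 windows of 7 members. In all promoters their shares on either strand were 2.98%, 8.52%, 42.5% and 2.20%. Windows of FOXS1 and EYA1 were not searched.

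With YK-4-279, FOXS1 was lower, FOXO1 was somewhat lower and FOXO4 somewhat higher, and the libraries of the groups did not overlap for these 3 genes. PAX3, FOXO3, SIX4, EYA1 and EYA4 had overlapping groups, and PAX7 was near 0. Over the 8 members that passed a mean of at least 10, 5 differences were above 0 and 3 below, with a median log2 difference of 0.03, against -0.01 over all 13930 genes in the fit. FOXS1 was the 1 member called by limma (adjusted p-value under 0.05), as were 3.41% of all genes tested, 1.26% being higher and 2.15% lower. Groups did not overlap for 26.0% of all genes tested. Because this contrast chose the members, nothing is read from their counts. In bulk RNA, fewer cells of a type and less RNA per cell cannot be told apart.

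**Figure D1:**
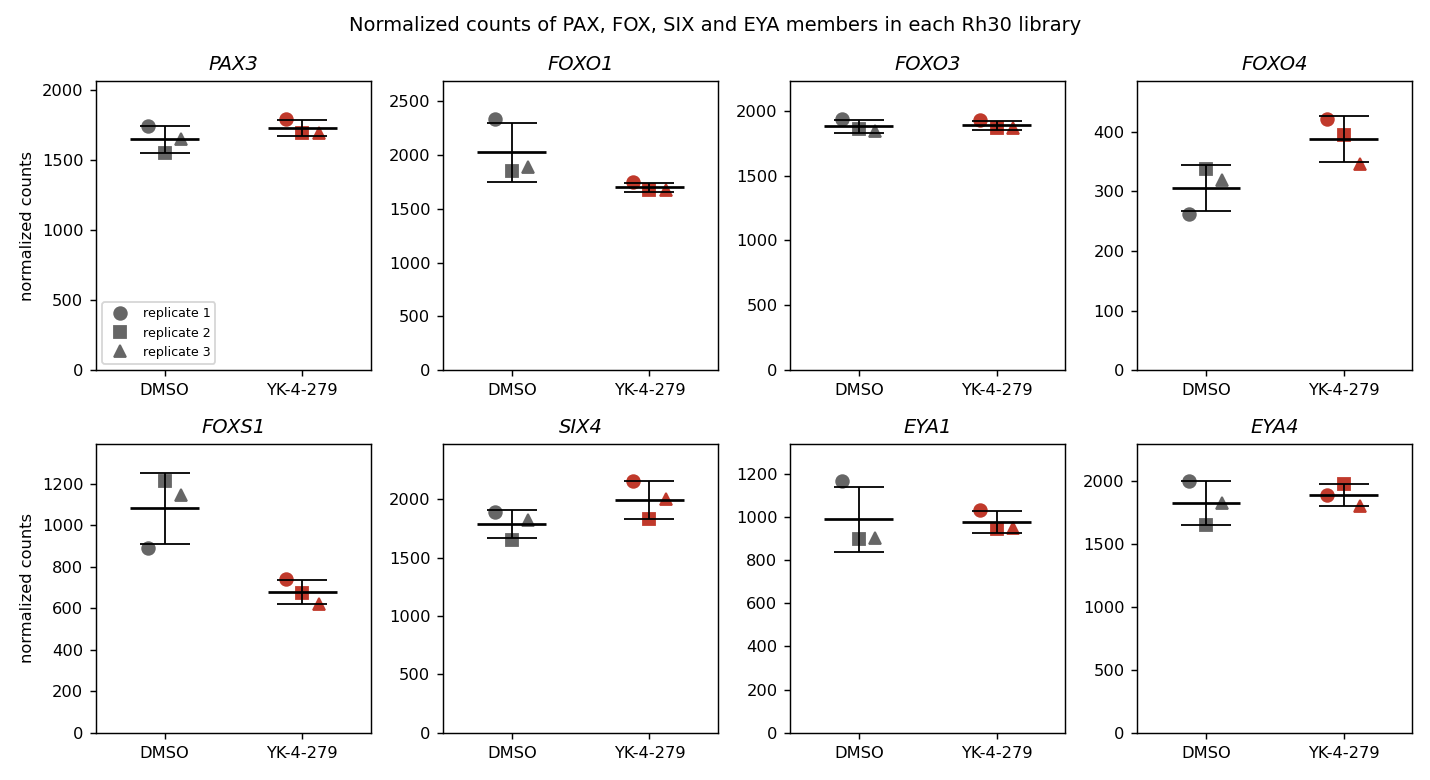
Normalized counts of the 8 members in the fit, in each DMSO (grey) and YK-4-279 (red) library. Symbols mark the replicates, long bars the mean and whiskers the SD (n = 3). The groups are apart for FOXS1 (889 to 1210 against 622 to 739), FOXO1 and FOXO4, and overlap for the other members.

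The groups overlapped for the 5' partner of the fusion. PAX3, on the minus strand of chromosome 2 at chr2:222199887-222298998 (hg38), had 1744, 1550 and 1652 normalized counts in DMSO replicates 1 to 3, and 1794, 1693 and 1694 with YK-4-279. The means were 1648 ± 97.0 and 1727 ± 58.2 (SD, n = 3 each), a log2 difference of 0.07 (standard error 0.07) on the scale of log2(normalized count + 1). PAX3 was among the steadier genes, since 20.3% of genes had a smaller spread within groups. The difference was 0.11 (standard error 0.05) without DMSO replicate 1, 0.02 without DMSO replicate 2 and 0.04 without YK-4-279 replicate 1. CCDC140, which lies head to head with PAX3 on the opposite strand, had 30.4 ± 12.6 and 28.6 ± 2.67 normalized counts (SD, n = 3 each). The library kit was directional, but the strand setting of the counting is not given in the sources used here.

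PAX7, the 5' partner of the less common rhabdomyosarcoma fusion, was barely detected. Its reads numbered 1, 0 and 4 in the DMSO libraries and 0 in each YK-4-279 library, which allows up to 3 reads per library. It did not pass the filter and no fold is given.

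FOXO1, the 3' partner of the fusion, was lower in every treated library. On the minus strand of chromosome 13, at chr13:40555667-40666641, it had 2336, 1849 and 1887 normalized counts in DMSO and 1745, 1673 and 1676 with YK-4-279. DMSO replicate 1 was far above the others, while the treated libraries lay close together. The means were 2024 ± 271 and 1698 ± 40.9 (SD, n = 3 each), a change of -16.1% and a log2 difference of -0.25 (standard error 0.08). Without DMSO replicate 1 the DMSO mean was 1868 and the difference was -0.14 (standard error 0.05). The processed pseudogene FOXO1B was at 0 in all 6 libraries.

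The ratio of FOXO1 to PAX3 counts, both of which include reads of the fusion, was 1.34, 1.19 and 1.14 in the DMSO libraries and 0.973, 0.988 and 0.989 with YK-4-279. Every treated library was below every DMSO library, with means of 0.984 ± 0.009 and 1.23 ± 0.10 (SD, n = 3 each). How far this ratio reflects the fusion, the wild-type alleles or each of them was not tested, because reads over the junction are not separated in a count per gene.

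FOXO3, a forkhead factor that shares most known targets with FOXO1, hardly varied. On chromosome 6 (chr6:108559835-108684774, plus strand), it had 1938, 1857 and 1844 normalized counts in DMSO and 1929, 1865 and 1870 with YK-4-279. The means of 1880 ± 50.9 and 1888 ± 35.6 (SD, n = 3 each) gave a log2 difference of 0.01 (standard error 0.06), or 0.03 (standard error 0.05) without DMSO replicate 1, and its spread within groups exceeded that of just 2.79% of the genes tested. Its near-identical copy FOXO3B had 2596 ± 103 and 2909 ± 92.8 (SD, n = 3 each; log2 difference 0.16, limma adjusted p = 0.155). The split of reads between the copies makes the level of FOXO3 uncertain.

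FOXO4, the least abundant of the 3 FOXO members, was higher in every treated library. It lies on the X chromosome (chrX:71095851-71103532, plus strand), and had 262, 337 and 318 normalized counts in DMSO and 422, 394 and 345 with YK-4-279. The nearest libraries of the groups, DMSO replicate 2 and YK-4-279 replicate 3, were 337 and 345. The means were 306 ± 38.8 and 387 ± 38.7 (SD, n = 3 each), a change of 26.6% and a log2 difference of 0.34 (standard error 0.11), or 0.24 (standard error 0.09) without DMSO replicate 1.

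Levels were divided by the length of the canonical transcript, so that the FOXO genes could be set side by side. FOXO1 made up 54.5%, 48.0% and 49.0% of the summed level per kilobase of FOXO1, FOXO3 and FOXO4 in DMSO, and 44.3%, 44.3% and 45.2% with YK-4-279. FOXO4 made up 9.70%, 13.9% and 13.1% in DMSO, and 17.0%, 16.6% and 14.8% with the drug. FOXO3 made up 35.8%, 38.2% and 37.9% in DMSO, and 38.8%, 39.1% and 40.0% with the drug. The FOXO1 share was lower and the FOXO3 and FOXO4 shares higher in all treated libraries. The summed level was 667 to 742 normalized counts per kilobase in DMSO and 641 to 682 with the drug, which overlapped. The FOXO1 share includes fusion reads. FOXO6, with 1674 ± 240 and 1518 ± 95.5 normalized counts (SD, n = 3 each) on 1479 nucleotides, is not in the sum. FOXO3B is not in it either, so the shares are those among FOXO1, FOXO3 and FOXO4 alone.

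**Figure D2:**
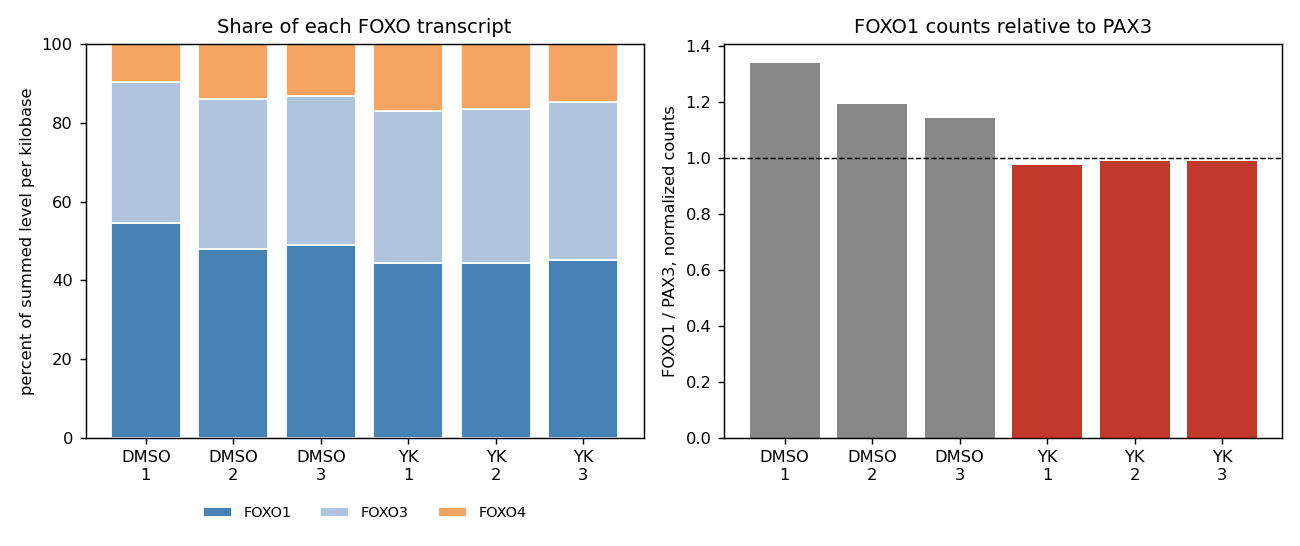
Left, percent of the summed level per kilobase held by FOXO1, FOXO3 and FOXO4 in each library. FOXO6 and FOXO3B are not in the sum. Right, the ratio of FOXO1 to PAX3 normalized counts per library, with a dashed line at 1. The ratio was 1.14 to 1.34 in DMSO (grey) and 0.973 to 0.989 with YK-4-279 (red), and the FOXO1 share was 48.0% to 54.5% against 44.3% to 45.2%.

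FOXS1 had the largest difference of the members. This gene on the minus strand of chromosome 20 (chr20:31844303-31845604) has 1 exon of 1302 nucleotides and a GC content of 64.1%. It had 889, 1210 and 1144 normalized counts in DMSO and 739, 675 and 622 with YK-4-279, and every treated library was below every DMSO library. The means were 1081 ± 170 and 679 ± 58.7 (SD, n = 3 each), a change of -37.2% and a log2 difference of -0.66 (standard error 0.11). In absolute size it ranked 383, larger than 97.3% of the genes tested. DMSO replicate 1 was the lowest of the DMSO libraries, and without it the difference was -0.80 (standard error 0.06). Its difference ranged from -0.80 to -0.57 over the fits that left out 1 library.

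SIX4 is a homeobox factor that works with EYA proteins in myogenic progenitors. On chromosome 14 (chr14:60709539-60724351, minus strand), it had 1886, 1653 and 1818 normalized counts in DMSO and 2152, 1828 and 1998 with YK-4-279. YK-4-279 replicate 2 lay below DMSO replicate 1, so the groups overlapped. The means were 1786 ± 120 and 1992 ± 162 (SD, n = 3 each), with a log2 difference of 0.16 (standard error 0.07), and 0.20 (standard error 0.05) without DMSO replicate 1. It was 0.10 without DMSO replicate 2 and 0.10 without YK-4-279 replicate 1.

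EYA1 and EYA4, co-activators with phosphatase activity that SIX4 and its relatives recruit, did not separate the groups. EYA1 (chr8:71197433-71592025, minus strand) had 1164, 899 and 903 normalized counts in DMSO and 1033, 942 and 949 with YK-4-279. Its mean was 989 ± 152 against 975 ± 50.2 (SD, n = 3 each), with a log2 difference of -0.01 (standard error 0.10) that was 0.11 (standard error 0.06) without DMSO replicate 1. Its sign also changed in fits that kept that library, and its difference ranged from -0.07 to 0.11 when each library was left out in turn. EYA4 (chr6:133240514-133532128, plus strand) had 1996, 1654 and 1826 normalized counts in DMSO and 1888, 1976 and 1803 with the drug. Its means of 1825 ± 171 and 1889 ± 86.3 (SD, n = 3 each) gave a log2 difference of 0.05 (standard error 0.07), and 0.12 (standard error 0.05) without DMSO replicate 1. It was -0.02 without DMSO replicate 2 and 0.02 without YK-4-279 replicate 2.

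**Figure D3:**
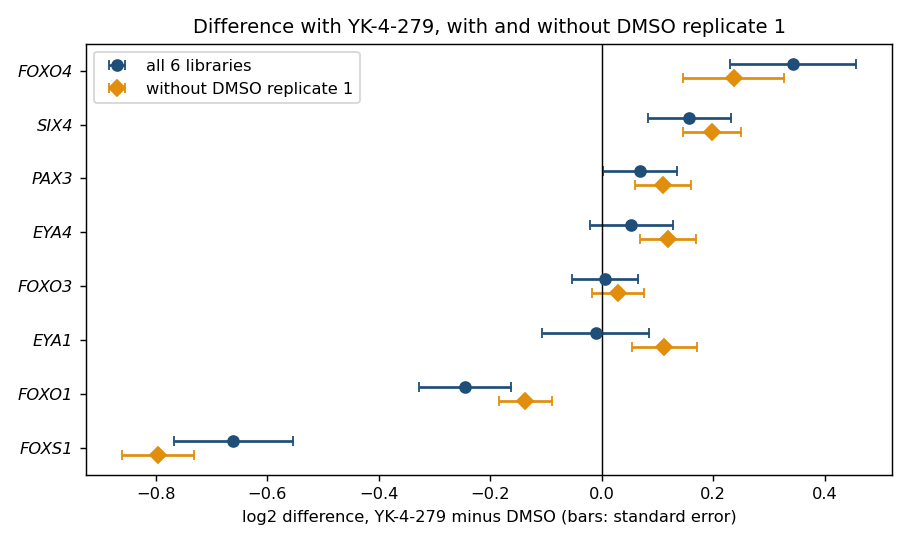
Log2 difference of each member, YK-4-279 minus DMSO, with all 6 libraries (blue) and without DMSO replicate 1 (orange); bars are standard errors. FOXS1 went from -0.66 to -0.80, FOXO1 from -0.25 to -0.14, and EYA1 changed sign, from -0.01 to 0.11.

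In DMSO, FOXS1 had the highest level per kilobase of canonical transcript, 830 ± 130 normalized counts per kilobase, followed by PAX3 at 491 ± 28.9 and FOXO1 at 350 ± 46.9 (SD, n = 3 each). The ranges of these 3 genes did not overlap. EYA4 at 320 ± 30.0, SIX4 at 275 ± 18.5, FOXO3 at 258 ± 7.0 and EYA1 at 237 ± 36.5 came next, and each neighbour overlapped the next, FOXO1 and EYA4 included. FOXO4 at 83.9 ± 10.6 was apart from EYA1 above it and PAX7 below it. With YK-4-279, FOXS1 was at 521 ± 45.1 and PAX3 at 514 ± 17.3, and their ranges overlapped. EYA4 (331 ± 15.1), apart from PAX3, overlapped with SIX4 (307 ± 25.0), which overlapped with FOXO1 (294 ± 7.1), and FOXO3 (259 ± 4.9), EYA1 (234 ± 12.1) and FOXO4 (106 ± 10.6) each lay apart. The DMSO order was the same without DMSO replicate 1, an alternative chosen after seeing the data, with FOXS1 at 904, PAX3 at 477 and FOXO1 at 323, but then FOXO1 and EYA4 were the 1 pair of neighbours that overlapped. The order rests on the transcript chosen. With the union of all exons as the length, which was also chosen after seeing the data, FOXO1 at 340 came after FOXS1 in DMSO, followed by SIX4 at 264, FOXO3 at 245, PAX3 at 208, EYA4 at 124, EYA1 at 106 and FOXO4 at 80.7.

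The genes nearest to PAX3 in profile, by root mean square distance of centred log2 values over the 6 libraries among 10698 genes with a mean of at least 100, were KDM4A (0.011) and MDN1 (0.012). For FOXO1 they were SEH1L (0.022) and TAF9B (0.025), and for FOXS1 they were CHRNA5 (0.127) and LIPG (0.135). These distances grow with a gene's own spread over the libraries, whose root mean square was 0.066 for PAX3, 0.165 for FOXO1 and 0.365 for FOXS1, so they are not compared between members.

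Of 40 other forkhead genes, 25 passed the filter and 0 were called in limma, with 4 at an unadjusted p under 0.05 and 0 called by edgeR or DESeq2. Of all genes tested, 18.7% were at an unadjusted p under 0.05, and edgeR and DESeq2 called 3.34% and 4.47%. The forkhead list had a median log2 difference of -0.02, with 10 above 0 and 15 below. FOXK2, the forkhead gene with the highest mean, had 5254 ± 277 and 5189 ± 186 normalized counts (SD, n = 3 each; log2 difference -0.02, limma adjusted p = 0.911). FOXD2, a forkhead gene of mesenchyme, had 121, 134 and 139 normalized counts in DMSO and 115, 101 and 91.0 with the drug (log2 difference -0.36, limma adjusted p = 0.181). FOXA2, a pioneer factor of endoderm, went from 149 ± 15.1 to 117 ± 4.0 (SD, n = 3 each; log2 difference -0.34, limma adjusted p = 0.177). Both had groups that did not overlap, as had 4 of the 25 tested genes of this list and 26.0% of all genes tested. Without DMSO replicate 1, where 13.1% of all genes were called, the called genes of this list were FOXM1 (-0.22), a driver of mitotic genes, FOXO6 (-0.25) and FOXP2 (0.17), named after their values were seen. With all libraries their log2 differences were -0.20, -0.13 and 0.10.

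Of 16 other PAX, sine oculis homeobox, EYA and DACH genes, 11 passed the filter and 0 were called in limma, with 2 at an unadjusted p under 0.05 and 0 by edgeR or DESeq2. The median log2 difference was 0.03, and 6 were above 0 and 5 below. EYA2, the most abundant, had 2593 ± 136 and 2637 ± 35.8 normalized counts (SD, n = 3 each; log2 difference 0.03, limma adjusted p = 0.857). PAX6, the regulator of eye development, went from 139 ± 17.7 to 111 ± 8.7 (SD, n = 3 each; log2 difference -0.32, limma adjusted p = 0.244). SIX3, a factor of forebrain and eye, went from 226 ± 39.6 to 185 ± 8.1 (SD, n = 3 each; log2 difference -0.27, or -0.13 without DMSO replicate 1, limma adjusted p = 0.277 with all libraries). This list had 0 calls without DMSO replicate 1 as well.

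Among 35 genes described as FOXO targets, 29 passed the filter, and 3 were called higher and 1 lower in limma, where 1.26% and 2.15% of all genes were. The median log2 difference of the list was 0.05, with 20 above 0 and 9 below, against -0.01 over all genes. CITED2, a co-regulator of CBP and p300, had 709, 759 and 708 normalized counts in DMSO and 915, 985 and 1047 with YK-4-279. It rose by 0.44 on the log2 scale (standard error 0.08, limma adjusted p = 0.00966). KLHL24, a ubiquitin ligase adaptor, had 426, 306 and 355 in DMSO and 507, 545 and 502 with the drug, and rose by 0.53 (standard error 0.11, limma adjusted p = 0.0222). GABARAPL1, an autophagosome protein, had 682, 680 and 732 in DMSO and 915, 892 and 881 with the drug, and rose by 0.36 (standard error 0.07, limma adjusted p = 0.0153). BNIP3, a mitophagy receptor that is also induced by hypoxia, had 815, 754 and 736 in DMSO and 623, 598 and 606 with the drug, and changed by -0.33 (standard error 0.07, limma adjusted p = 0.0284). The groups did not overlap for any of these 4 genes. That held for 11 of the 29 tested genes of the list, and for 26.0% of all genes tested. BNIP3 was not called after quantile normalization (3 higher and 0 lower). With the replicate number as a block, BNIP3 and GABARAPL1 were not called (2 higher and 0 lower). Without DMSO replicate 3, BNIP3 and KLHL24 were not called (2 higher and 0 lower). None of the 4 was called with an untrended eBayes prior, which called 0.237% of all genes.

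The other 25 FOXO target genes did not pass the test. SOD2, the mitochondrial superoxide dismutase and the listed gene with the highest mean, had 3021 ± 49.0 and 2822 ± 101 normalized counts (SD, n = 3 each; log2 difference -0.10, limma adjusted p = 0.378). PIK3IP1, PDK4 and FBXO32 had larger log2 differences of 0.78, 0.72 and 0.64 at means under 50 normalized counts, with limma adjusted p-values of 0.121, 0.093 and 0.181. They were named after their values were seen. Without DMSO replicate 1, where 13.1% of all genes were called, 9 genes of the list were called, the 4 above with IRS2, BTG1, PDK4 and PIK3IP1 higher and INSR lower. When YK-4-279 replicate 1, 2 or 3 was left out, none was called, in fits that called 0.137%, 0.18% and 0.331% of all genes. The log2 differences there were 0.49 to 0.55 for KLHL24, 0.39 to 0.48 for CITED2, 0.35 to 0.37 for GABARAPL1 and -0.35 to -0.32 for BNIP3.

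Of 26 regulators of FOXO in the PI3K, AKT and SGK pathway and its export machinery, 23 passed the filter and 0 were called in limma. At an unadjusted p under 0.05 there were 4, edgeR called 1 (SGK1) and DESeq2 called 2 (SGK1 and YWHAH). Over all genes tested, the shares were 18.7%, 3.34% by edgeR and 4.47% by DESeq2. The median log2 difference was -0.02, with 8 above 0 and 15 below. SGK1, a kinase that phosphorylates FOXO factors, had 42.9, 47.0 and 35.9 normalized counts in DMSO and 72.0, 84.8 and 59.0 with YK-4-279. Its log2 difference was 0.76 (limma adjusted p = 0.054, and 0.047 by edgeR), close to the threshold on either side. Without DMSO replicate 1, where 13.1% of all genes were called, limma called SGK1 (0.78), AKT1 (-0.19), a kinase that phosphorylates FOXO factors, and YWHAH (-0.18). SGK1 and AKT1 are named after their values were seen. YWHAH, a 14-3-3 protein, had 2165 ± 183 and 1817 ± 54.1 (SD, n = 3 each; log2 difference -0.25, limma adjusted p = 0.067). PIK3CD, a catalytic subunit of PI3K, had 227 ± 28.3 and 286 ± 15.1 (SD, n = 3 each; log2 difference 0.34, limma adjusted p = 0.113). Without DMSO replicate 2, where 4.92% of all genes were called, limma called PIK3CD (0.44) and SGK1 (0.84). XPO1, the nuclear exporter with the highest mean of the list, had 13769 ± 1559 and 12398 ± 381 (SD, n = 3 each; log2 difference -0.15, or -0.05 without DMSO replicate 1, limma adjusted p = 0.297 with all libraries).

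Of 11 genes listed as targets of PAX3 in muscle progenitors, 9 passed the filter and 0 were called in limma, with 0 at an unadjusted p under 0.05 and 0 by edgeR or DESeq2. Their median log2 difference was -0.01, with 4 above 0 and 5 below. MYOD1, the master regulator of myogenesis, had 37118 ± 2368 and 36868 ± 1156 normalized counts (SD, n = 3 each; log2 difference -0.01, limma adjusted p = 0.963). DMRT2, which acts between PAX3 and MYF5 in the somite, had 520 ± 23.1 and 464 ± 26.2 (SD, n = 3 each; log2 difference -0.17, limma adjusted p = 0.299). LBX1, a homeobox gene of migrating limb muscle precursors, had 631 ± 11.1 and 569 ± 40.8 (SD, n = 3 each; log2 difference -0.15, limma adjusted p = 0.333). MYF5 and ITM2A were near 0 and did not pass the filter. The list is not separate from the others: it shares EYA2 with the PAX and EYA list. MYOD1, MYF5 and TFAP2B are also among the markers of skeletal myoblasts and rhabdomyosarcoma. FGFR4 (-0.17), which is also a known target of the fusion, and CXCR4 (0.14) were called without DMSO replicate 1, as were 13.1% of all genes, and are named after their values were seen.

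**Figure D4:**
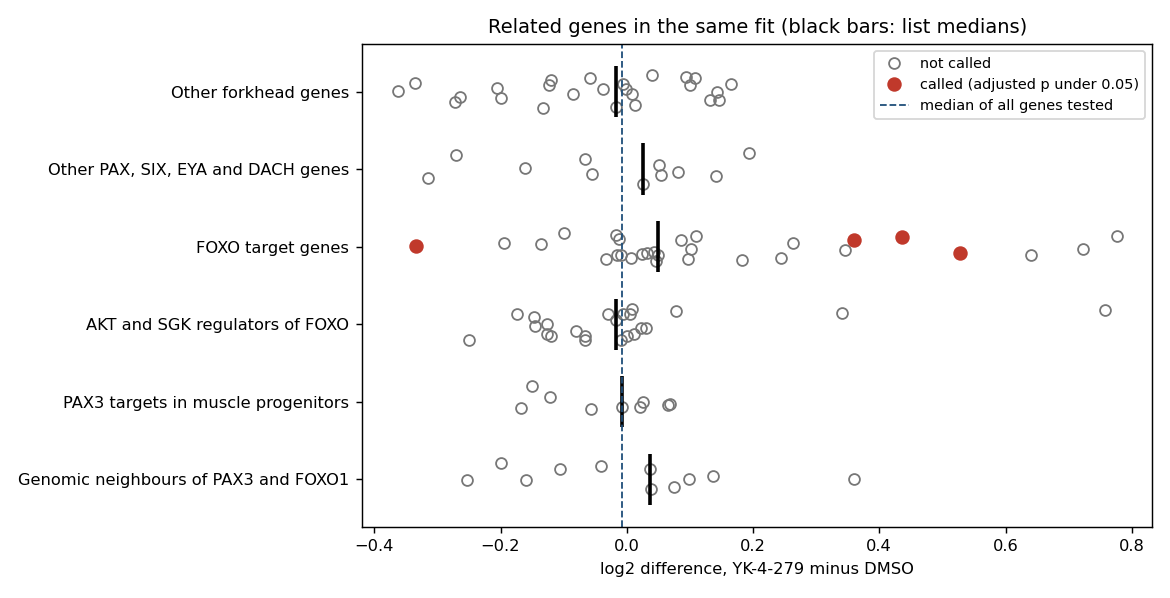
Log2 difference, YK-4-279 minus DMSO, of each gene in the 6 related lists (open circles not called, red circles called at a limma adjusted p under 0.05). Black bars are list medians, from -0.02 to 0.05, and the dashed line is the median of all genes tested, -0.01. The 4 called genes are the FOXO targets CITED2, KLHL24, GABARAPL1 and BNIP3.

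None of the 11 tested neighbours of PAX3 and FOXO1 on their chromosomes was called in limma, with 3 at an unadjusted p under 0.05, where 18.7% of all genes were, and 0 by edgeR or DESeq2, and their median log2 difference was 0.04. Around FOXO1, the log2 differences were -0.25 for MRPS31, -0.20 for NHLRC3, -0.11 for SLC25A15, 0.14 for LHFPL6, 0.04 for COG6 and 0.08 for ELF1. Around PAX3 they were 0.36 for SLC4A3, -0.16 for FARSB, 0.10 for SGPP2, -0.04 for STK11IP and 0.04 for EPHA4. Genes beside FOXO1 thus lay on both sides of 0. Several moved by over 1.5 times without DMSO replicate 1, to 0.18 for SLC4A3, 0.04 for LHFPL6, -0.16 for MRPS31, -0.10 for FARSB, -0.14 for STK11IP and 0.001 for SGPP2. When DMSO replicate 1 was left out and 13.1% of all genes were called, COG6 (0.18), ELF1 (0.18) and NHLRC3 (-0.17) were called.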

How the data were processed

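Polyadenylated RNA of 6 Rh30 samples, 3 with DMSO and 3 with YK-4-279, was sequenced in paired-end mode after a directional library preparation. The authors trimmed reads with BBDuk, aligned and counted them with STAR 2.7.9a on hg38, and analysed them with DESeq2 1.44.0, per the labels and the study's methods. The annotation and the strand setting used for counting are not given in the sources used here. What the authors deposited is a normalized signal (reads of a gene scaled by 1 factor for each library), and 100% of values in each library gave whole reads (tolerance 0.01). A row without a gene name, with at most 6 reads per library, was left out of 35269 rows. No per-sample column was left unused.

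Differences were fitted with limma 3.58.1 in R 4.3.3 on log2(normalized count + 1), with a trended eBayes prior, for 13930 genes with a mean of at least 10, two-sided, with Benjamini-Hochberg adjustment over all of them. Genes were called at an adjusted p-value under 0.05. On this scale changes of low genes are understated. The reads are not independent molecules, and the limit of 3 reads for a count of 0 covers counting error only. No 2 libraries were duplicates: the chi-square per degree of freedom was 16.1 and 13.9 for pairs with DMSO replicate 1 and 2.20 to 2.83 for the other pairs within groups.

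The members and gene lists were chosen with earlier results of these data known. Named genes were every member, the called genes of a list (at most 5), its gene with the highest mean, the 2 with the largest absolute change at a mean of at least 100, the chromosomal neighbours, and the nearest profiles. Alternatives were edgeR 4.0.16 and DESeq2 1.42.0 on whole reads, TMM or quantile scaling, another pseudocount, other filters, an untrended prior, the replicate number as a block, omission of each library, and removal of the dependence on GC content and length. GENCODE gave positions and lengths, with a match for 98.4% of the genes tested. The code was tested on simulated data. RefSeq promoters were searched for 7 members. FOXS1 had no entry, and EYA1 was left out of the search.

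Of marker lists for other cell types, the endothelial list (4 genes, 3 with a mean of at least 10) summed to 40.9 to 53.0 normalized counts in DMSO and 52.2 to 64.0 with YK-4-279. The epithelial list (5 genes, 2 at that mean) gave 82.9 to 101 and 80.4 to 131, the smooth muscle and pericyte list (5 genes, 3 at that mean) 1497 to 1869 and 1610 to 1745, and the melanocyte and neural crest list (4 genes, 3 at that mean) 123 to 132 and 105 to 134. The leukocyte list reached at most 2.00 and 1.00. The part of other cell types in the results was not tested.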

Additional observations from a re-analysis of the deposited data

How the results depend on the processing

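The fit on all 6 libraries called 475 genes. Other fits called 277 after quantile normalization, 33 with an untrended prior, 1915 after GC and length correction, and 19 to 1827 when 1 library was left out. The highest number was without DMSO replicate 1, and it was 686 and 242 without DMSO replicates 2 and 3 and 19, 25 and 46 without YK-4-279 replicates 1, 2 and 3. The share of calls that were higher was 37.1%, and it was 47.7% after quantile normalization, 90.9% with the untrended prior and 25.7% after GC and length correction. With the replicate number as a block, 180 genes were called in all, 1 member (FOXS1) and 2 FOXO targets (CITED2 and KLHL24), and 0 in each of the other lists. Same-numbered samples did not deviate together (correlations of -0.099, -0.027 and -0.027). These values show no strong shared effect of the number. They cannot settle whether the samples were handled in pairs, which the labels do not say.

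Called members numbered 1, against 0 with the untrended prior and 4 after GC and length correction. These fits called 0.237% and 13.7% of all genes. Called members numbered 0 to 3 without 1 library, with 0 without any one of the YK-4-279 libraries. The 3 were called without DMSO replicate 1, where 13.1% of all genes were called. These counts place the members and test nothing. For other forkhead genes there were 0, against 4 of the 25 tested after GC and length correction (FOXA2, FOXD2, FOXM1 and FOXO6, all lower). That count is close to the 13.7% of all genes called there. Without 1 library 0 to 3 forkhead genes were called. For FOXO targets there were 4, against 0 with the untrended prior, 7 after GC and length correction and 0 to 9 without 1 library. For AKT and SGK regulators there were 0, against 1 with a pseudocount of 10, 1 by edgeR, 2 by DESeq2, 4 after GC and length correction and 0 to 3 without 1 library. Of all genes, 3.52% were called with that pseudocount, 3.34% by edgeR and 4.47% by DESeq2. For PAX3 targets there were 0, against 2 after that correction (DMRT2 and FGFR4, both lower) and 0 to 2 without 1 library, and for the neighbours 0, against 0 to 3 without 1 library. The causes were not tested.

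Small differences changed sign. When 1 library was left out, the differences ranged over -0.061 to 0.013 for FOXK2, -0.014 to 0.061 for EYA2, -0.060 to 0.031 for MYOD1, -0.11 to 0.16 for EPHA4, -0.14 to 0.024 for STK11IP, -0.039 to 0.18 for SGPP2, -0.042 to 0.18 for COG6 and -0.015 to 0.18 for ELF1. FOXK2 was 0.0015 with TMM, 0.035 with quantile normalization and 4.0e-05 by edgeR, and MYOD1 was 0.010, 0.011 and 0.0083 in these and 0.0043 by DESeq2. EYA2 was -0.039 after GC and length correction, and SGPP2 was -0.025 with quantile normalization. Over 16 alternatives, FOXS1 stayed between -0.80 and -0.57, FOXO1 between -0.31 and -0.14 and FOXO4 between 0.24 and 0.42. The sign changed in 4 for FOXO3, 7 for EYA1 and 1 for EYA4. Among the 16, the other filters, the untrended prior and the replicate block cannot move a member's log2 difference, so they say nothing about its stability.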
